A study of Mus musculus with 9 samples.

Results

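The widest CHD7 peaks are the 376 peaks, out of 3761 in the deposited list, that cover the longest stretches of the genome in mouse cardiac precursor (CP) cells. They were chosen by width alone, taken as end minus start on mm10 (GRCm38), and no tie had to be broken at the last place. They are called broad peaks below. The other 3385 peaks of the list serve as the comparison. The cells were wild-type mouse embryonic stem cells on the way to cardiomyocytes, collected at day 5, and the assay was CUT&RUN, in which a nuclease tethered by an antibody cuts out the DNA around the bound protein. Libraries were made with anti-CHD7, with the control antibody IgG and from input, with 3 biological replicates of each. The authors called peaks per sample against IgG and kept those found in more than 1 replicate as a single list, so that no peak has a value per replicate, a height or a read count. Errors between replicates can therefore not be given, the depth of the libraries is unknown here, and the Wilson 95% confidence intervals (CI) cover counting error only. Each test treats the peaks of the list as its units. Expression of marker genes of CP cells was not analysed here.

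CHD7 belongs to the chromodomain helicase family, motor proteins that move histone octamers along DNA. Pathogenic variants of its gene cause CHARGE syndrome, whose features range from coloboma and choanal atresia to heart defects. CHD7 occupies promoters as well as enhancers, the distant elements through which transcription factors set the expression of developmental genes.

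The widths ranged from 1479 to 3419 bp, with a median of 1769 bp and quartiles at 1614 and 2060 bp. All other peaks had a median width of 665 bp. These 376 peaks held 22.2% of the sequence covered by the whole list. These widths selected the peaks and are a description. Width depends on the calling threshold and on how overlapping calls were joined, neither of which is given in the sources used here, so that broad refers to the listed interval. At the threshold the list ran without a gap. The last peaks included were peak1538, in an intron of Fam168a, and peak1723, in coding sequence of Mast1 at 796 bp from a transcription start site (TSS) of Dnase2a, both 1479 bp wide. The first left out were peak466, in an intron of Hao1, with 1478 bp, and peak1469, between genes, with 1477 bp. Peak numbers give the order in the list.

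**Figure D1:**
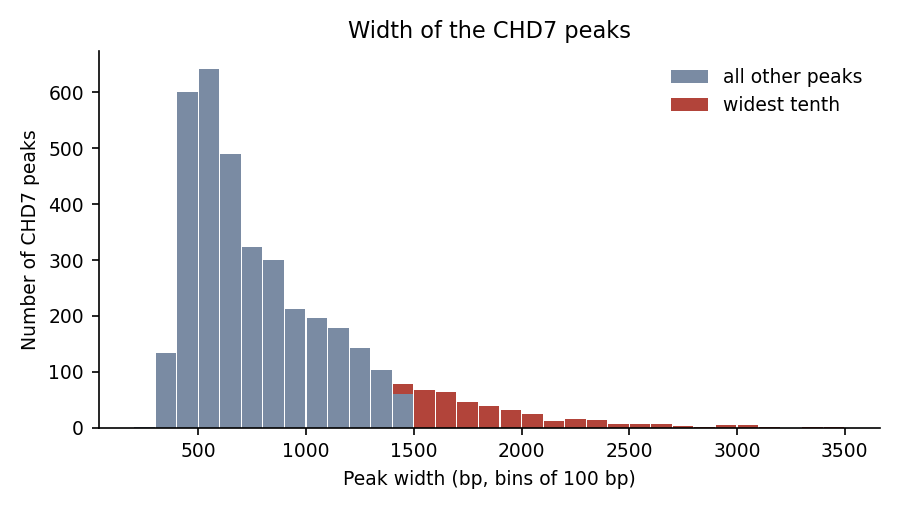
Number of CHD7 peaks (y axis) by peak width in bins of 100 bp (x axis), with the 376 broad peaks in red and all other peaks in grey-blue. The 376 peaks from 1479 bp upwards form the tail of a single continuous distribution.

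The sequences of 8 of these peaks follow, each as the 200 bp around the midpoint on the plus strand of GRCm38. They are examples of the widest peak of all, of broad promoter peaks and of peaks in regulatory domains of genes of heart development and signalling. Such a peak can lie far from the gene named. The genes were chosen by name, so the 8 windows do not show how common a motif is. Capitals mark matches on either strand to the consensus motifs searched, and the remaining bases are in lower case. The motifs found in these windows were that of GATA factors (AGATAA), KLF/SP (CCCCNCCC), the GC box (GGGCGG), the CTCF core, caudal (CATAAA), FOX (TGTTTAC), TEAD (GGAATG) and MEIS (TGACAG). A KLF/SP match can contain a GC box, as in the windows of Zfp78 and Sema3b. A match shows that the letters are present and not that a factor binds there.
Capn5 intron (the widest peak), chr7:98128295-98128494: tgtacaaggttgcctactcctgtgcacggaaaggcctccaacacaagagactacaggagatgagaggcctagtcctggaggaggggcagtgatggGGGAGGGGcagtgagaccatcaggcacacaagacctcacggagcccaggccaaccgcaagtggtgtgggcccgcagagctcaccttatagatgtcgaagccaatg
Zfp78 promoter, chr7:6362435-6362634: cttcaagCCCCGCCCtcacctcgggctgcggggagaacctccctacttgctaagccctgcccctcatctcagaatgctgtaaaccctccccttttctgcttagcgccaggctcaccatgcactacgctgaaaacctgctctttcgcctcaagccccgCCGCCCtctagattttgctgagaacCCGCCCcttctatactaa
Jph2 promoter, chr2:163398110-163398309: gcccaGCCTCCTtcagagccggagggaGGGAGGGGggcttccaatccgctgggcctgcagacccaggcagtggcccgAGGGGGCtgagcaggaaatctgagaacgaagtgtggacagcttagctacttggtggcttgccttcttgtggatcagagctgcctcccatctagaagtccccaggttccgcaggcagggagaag
Foxc2 domain, chr8:121121009-121121208: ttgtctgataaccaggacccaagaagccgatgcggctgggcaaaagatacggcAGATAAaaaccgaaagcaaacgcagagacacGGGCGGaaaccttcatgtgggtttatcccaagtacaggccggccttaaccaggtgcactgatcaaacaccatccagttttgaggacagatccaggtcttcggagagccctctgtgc
Hand2 domain, chr8:56924166-56924365: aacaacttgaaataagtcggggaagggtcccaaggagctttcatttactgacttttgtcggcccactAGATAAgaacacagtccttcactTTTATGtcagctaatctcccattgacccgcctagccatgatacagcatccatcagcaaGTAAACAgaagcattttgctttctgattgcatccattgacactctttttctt
Tpm1 intron, chr9:67044355-67044554: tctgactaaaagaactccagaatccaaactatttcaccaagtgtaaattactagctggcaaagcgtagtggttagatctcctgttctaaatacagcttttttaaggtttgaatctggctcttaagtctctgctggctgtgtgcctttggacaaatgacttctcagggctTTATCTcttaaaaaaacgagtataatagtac
Wnt5a domain, chr14:28480765-28480964: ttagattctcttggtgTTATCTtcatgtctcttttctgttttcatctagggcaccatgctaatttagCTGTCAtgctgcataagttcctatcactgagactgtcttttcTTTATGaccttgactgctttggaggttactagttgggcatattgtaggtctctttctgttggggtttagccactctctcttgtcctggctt
Sema3b domain, chr9:107612481-107612680: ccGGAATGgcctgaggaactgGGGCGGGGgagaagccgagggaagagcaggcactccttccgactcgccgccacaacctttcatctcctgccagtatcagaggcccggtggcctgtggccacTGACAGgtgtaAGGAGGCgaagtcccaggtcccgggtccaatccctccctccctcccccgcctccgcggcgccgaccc

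The first window lies in intron 9 of Capn5, which encodes a calpain protease, and its last bases reach into an exon. It holds 1 KLF/SP match and has a GC content of 58.5%. The windows at Zfp78, a zinc finger gene, and at Jph2, which encodes the junctophilin that anchors the sarcoplasmic reticulum to the cell membrane in cardiomyocytes, are upstream of a TSS and have a GC content of 58.0% and 62.5%. At Zfp78 there were 3 GC boxes, with 1 of them inside the KLF/SP match, and at Jph2 1 KLF/SP and 2 CTCF core matches. The peak near Foxc2, a forkhead gene of the outflow tract and lymphatic vessels, lies in intron 1 of the predicted gene Gm20388 and holds a GATA match and a GC box. The windows in the domains of Hand2, Tpm1 and Wnt5a each hold 1 GATA match and have a lower GC content, of 42.5%, 38.0% and 41.5%. Among all broad peaks 11.4% held a GATA match, and among the others 11.8%. The central windows of the broad peaks in the domains of Fgf10, Six2 and Zfpm1, not shown, held none of the motifs searched. Hand2 encodes a bHLH factor of the second heart field, Tpm1 a tropomyosin of the sarcomere and Wnt5a a noncanonical WNT ligand. The window near Sema3b, a secreted semaphorin, has the highest GC content of the 8, at 68.0%, and 5 matches.

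Among the 20 widest peaks, 10 midpoints lay outside protein-coding genes, 8 in introns and 2 in noncoding exons. Of these 20, 6 were within 1 kb of a protein-coding TSS and 4 were over 10 kb away. The widest, peak1532 at chr7:98126686-98130104, spanned 3419 bp inside Capn5, and its midpoint was 8871 bp from the nearest TSS, that of Myo7a, a myosin of inner ear hair cells. Next came peak1926 at chr9:61943844-61947220, with 3377 bp, in a noncoding exon of Kif23, a kinesin needed for cytokinesis. The midpoint of peak1404 (3320 bp) was 745 bp upstream of Zfp78, and that of peak519 (3123 bp, chr2:163396649-163399771) was 217 bp upstream of Jph2. Broad peaks at a TSS were also found at Ubr4, a ubiquitin ligase (peak932, 3056 bp, midpoint at 193 bp), Lin7b (peak1463, 2992 bp, at 624 bp), Chat, which encodes the enzyme that makes acetylcholine (peak2950, 2924 bp, at 129 bp), and Rexo1 (peak2187, 2720 bp, at 507 bp). Others of the 20 lay in introns of Cachd1, the imprinted receptor gene Igf2r, Nlrc5, Akap2 and the histone acetyltransferase gene Hat1. Intergenic ones had Fam120a, Stk25, Ccnl1, Fam110c, Fbxo7, Nectin1 and Pmaip1 as the nearest gene.

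To find out whether broad CHD7 peaks sit nearer to a TSS, distances were taken from peak midpoints to the closest TSS among all annotated protein-coding transcripts. Broad peaks were more often at promoters. The midpoint lay within 1 kb of a TSS in 86 of 376 broad peaks, a share of 22.9% (95% CI 18.9 to 27.4), and in 499 of 3385 other peaks, or 14.7% (95% CI 13.6 to 16.0). The odds ratio was 1.72 (2-sided Fisher's exact test, P = 8.78e-05, adjusted P = 0.000527, Benjamini-Hochberg over 6 tests of location). Sites far from a TSS were correspondingly fewer. Over 10 kb from a TSS there were 182 broad peaks (48.4%, 95% CI 43.4 to 53.4) against 57.6% of the others (odds ratio 0.69, adjusted P = 0.0024, same Fisher's exact test). Over 50 kb it was 72 broad peaks (19.1%) against 25.2% (odds ratio 0.703, adjusted P = 0.0192, same Fisher's exact test). The median distance was 9445 bp for broad peaks and 14316 bp for the others. Against only the next 376 peaks by width, of which 19.1% were promoter peaks and 55.6% over 10 kb away, none of these 3 differences passed the threshold (adjusted P = 0.489, 0.233 and 0.233, Fisher's exact tests). Nor did they pass when the widest twentieth of the list was compared with its rest (adjusted P = 0.145, 0.532 and 0.662, Fisher's exact tests). The share over 50 kb also did not pass with 1 TSS per gene (adjusted P = 0.0539), TSSs of every biotype (adjusted P = 0.247) or the widest 20% of the list (adjusted P = 0.13, Fisher's exact tests).

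The plot of distance classes shows where the additional promoter peaks lay. From 0.1 to 1 kb there were 73 broad peaks (19.4%, 95% CI 15.7 to 23.7) against 9.42% of the others (95% CI 8.49 to 10.5). Within 0.1 kb, the share was 3.46% (95% CI 2.03 to 5.82) against 5.32% (95% CI 4.61 to 6.13). Between 1 and 10 kb the shares were alike, with 17.6% against 16.4% from 1 to 5 kb and 11.2% against 11.3% from 5 to 10 kb. Beyond 100 kb they were 8.78% and 13.4%. The midpoint was downstream of the nearest TSS in 54.3% of broad peaks (95% CI 49.2 to 59.2) and in 48.6% of the others (95% CI 46.9 to 50.3). These classes were looked at without a test.

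**Figure D2:**
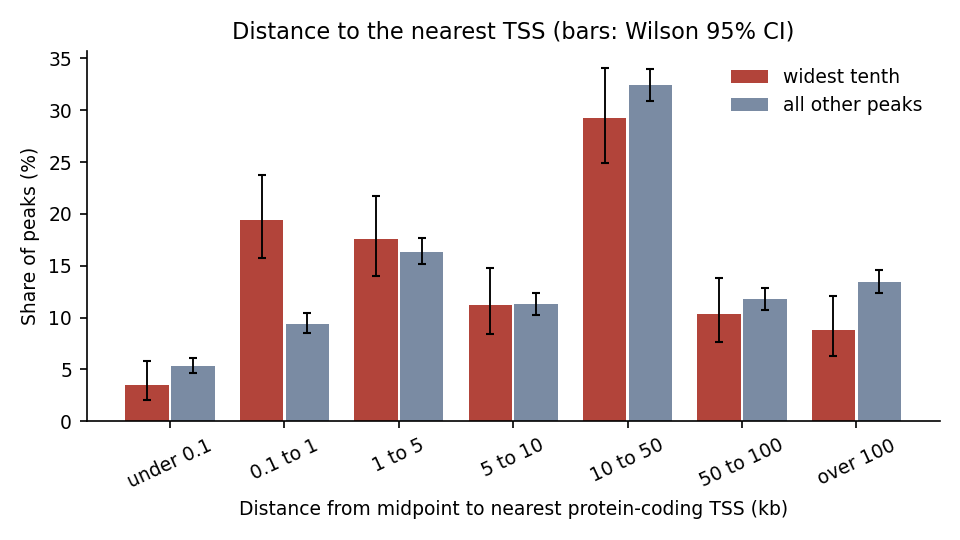
Share of peaks in percent (y axis) by distance from the midpoint to the nearest protein-coding TSS in kb (x axis), for broad peaks (red) and all other peaks (grey-blue), with Wilson 95% CI as error bars. The class from 0.1 to 1 kb holds 19.4% of broad peaks and 9.42% of the others.

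In 10 groups of the whole list ordered by width, the shares of group 1, the broad peaks, lay at the end of the range, with uneven steps between. The promoter share was 22.9% in group 1, 19.1% in group 2, 16.8% in group 3, 19.1% in group 4 and 9.81% in group 10, which holds the narrowest. The share over 10 kb from a TSS was 48.4% in group 1 and 55.6% in group 2, between 53.7% and 56.1% in groups 3 to 6, and 65.5% in group 10. Mean GC content of the central 200 bp was 49.7% in group 1, 49.4% in group 5 and 47.0% in group 10.

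**Figure D3:**
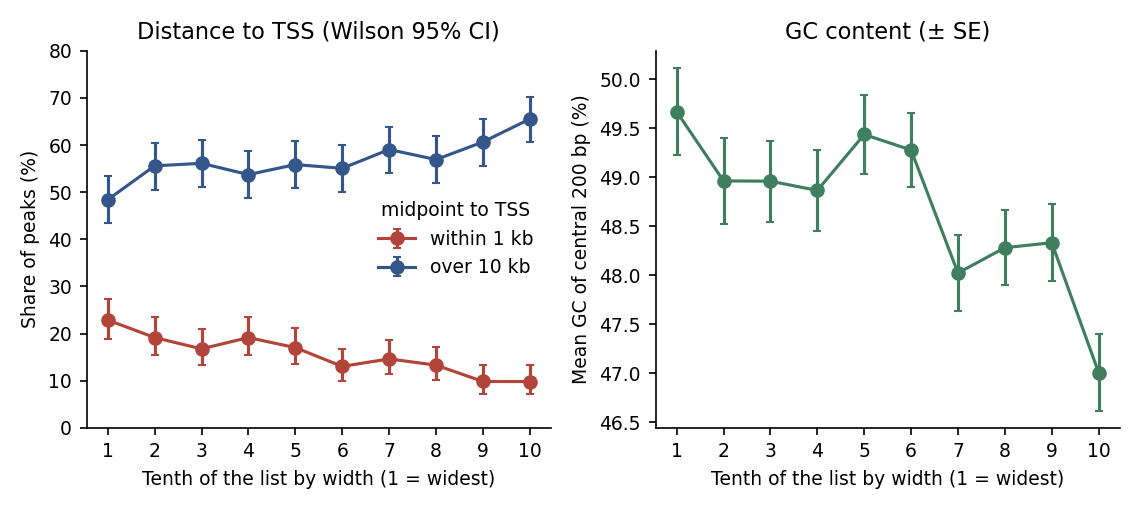
Left, share of peaks in percent with a midpoint within 1 kb (red) or over 10 kb (blue) from a protein-coding TSS, with Wilson 95% CI. Right, mean GC content in percent of the central 200 bp with its SE, on an axis that does not start at 0. The x axis gives 10 groups of the list by width, from 1 for the widest to 10 for the narrowest, and the promoter share goes from 22.9% to 9.81%.

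By gene annotation, neither the intergenic nor the intron share of broad peaks passed the threshold. The midpoint was outside protein-coding genes in 163 broad peaks (43.4%) and 47.2% of the others, a difference of -3.83 percentage points (95% CI -9.02 to 1.49, 2-sided Fisher's exact test, adjusted P = 0.247). Introns held 173 broad peaks (46.0%) against 44.0%, a difference of 1.96 points (95% CI -3.28 to 7.28, adjusted P = 0.477, Fisher's exact test). UTRs held 5.59% against 4.64%, coding sequence 2.93% against 3.16% and noncoding exons of protein-coding genes 2.13% (95% CI 1.08 to 4.14) against 0.975% (95% CI 0.695 to 1.37), none of which was tested. The next 376 peaks by width had the same share in noncoding exons as broad peaks, 2.13%. Within introns, the share in intron 1 was higher for broad peaks than for all others. Of 161 broad peaks in an intron of the transcript used for each gene, 66 lay in intron 1 (41.0%, 95% CI 33.7 to 48.7), against 430 of 1353 others (31.8%, 95% CI 29.4 to 34.3). This share was computed after the locations had been seen and was not tested. As a share of all peaks in each class, intron 1 held 17.6% of broad peaks, 16.8% of the next 376 by width and 12.7% of all others. The higher share was therefore not particular to broad peaks. The host genes had similar lengths, with medians of 103949 and 102933 bp. Broad peaks had another CHD7 peak within 50 kb in 102 cases (27.1%), against 24.1% of the others (difference 3.02 points, 95% CI -1.47 to 7.94, adjusted P = 0.247, Fisher's exact test).

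Sequence composition was compared in windows of equal length. The central 200 bp lie inside every peak of the list, whose narrowest is 246 bp wide, while windows of 500 bp reach into the flanks of the narrower peaks and of no broad one. In the central 200 bp, broad peaks had a mean GC content of 49.7% (SD 8.66, n = 376) and the others 48.6% (SD 7.77, n = 3385). The difference was 1.10 percentage points (SE 0.467, 95% CI 0.183 to 2.01) and did not pass the threshold of 0.05 after adjustment over 3 tests of composition (linear model with robust standard error, n = 376 and n = 3385, P = 0.0187, adjusted P = 0.0561). In the central 500 bp, flanks of narrower peaks included, the difference was 1.09 points and passed it (adjusted P = 0.0152, same model, n = 376 and n = 3385). With distance class as a covariate it was 0.313 points (adjusted P = 0.66, same model, n = 376 and n = 3385). Among peaks over 10 kb from a TSS, the means were 47.3% and 46.7%, and among promoter peaks 55.6% and 56.1%. CpG-rich windows, with a GC content of at least 50% and a ratio of observed to expected CpG of at least 0.6 over 500 bp, made up 30 broad peaks (7.98%) and 7.09% of the others (difference 0.889 points, 95% CI -1.62 to 4.17, Fisher's exact test, adjusted P = 0.66). Most of the 30 were promoters. Of the 86 broad promoter peaks, 26 were CpG-rich (30.2%, 95% CI 21.5 to 40.6), against 216 of the 499 other promoter peaks (43.3%, 95% CI 39.0 to 47.7). This comparison was added after the data had been seen, and its odds ratio of 0.568 did not pass the threshold (Fisher's exact test, adjusted P = 0.0734). Over 10 kb from a TSS, 0 of 182 broad peaks and 11 of 1950 others were CpG-rich. Windows of mostly repeat-masked sequence made up 37 broad peaks (9.84%) against 10.8% (difference -0.913 points, 95% CI -3.75 to 2.66, Fisher's exact test, adjusted P = 0.66).

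Along the flanks, the GC content of broad peaks stayed high over a longer stretch. From 500 to 1000 bp on both sides of the midpoint it averaged 47.9% (SD 5.34) in broad peaks and 45.3% (SD 5.66) in the others, and from 1500 to 2000 bp 45.8% (SD 4.93) and 45.1% (SD 5.37). Since most of the first stretch lies inside a broad peak and outside a narrow one, this is a description of what the peaks cover and was not tested.

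**Figure D4:**
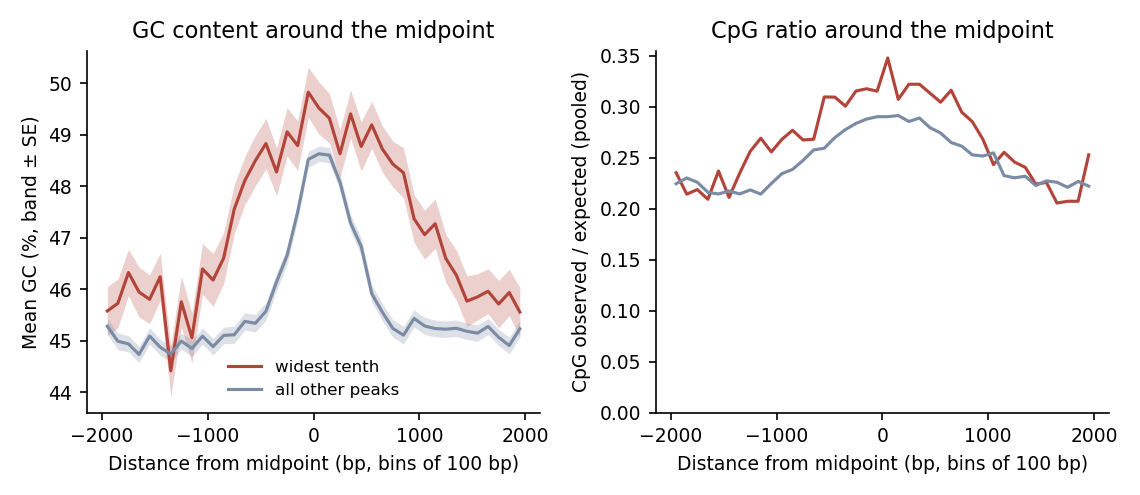
Mean GC content in percent with a band of its SE (left, axis not from 0) and the pooled ratio of observed to expected CpG (right) in bins of 100 bp, by distance from the midpoint in bp (x axis), for broad peaks (red) and all other peaks (grey-blue). From 500 to 1000 bp the mean GC content is 47.9% in broad peaks and 45.3% in the others.

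For each of 18 consensus motifs, peaks were counted as positive if the central 200 bp held a match. After Benjamini-Hochberg adjustment for the 18, Fisher's exact test found 0 motifs that differed between broad and other peaks, and at an unadjusted P under 0.05 there were 3. KLF/SP, bound by zinc finger factors of GC-rich promoters, matched in 59 broad peaks (15.7%, 95% CI 12.4 to 19.7) and 10.8% of the others (odds ratio 1.53, Fisher's exact test, P = 0.0076, adjusted P = 0.137). The GC box, which shares letters with it, matched in 12.2% and 8.30% (odds ratio 1.54, Fisher's exact test, P = 0.0154, adjusted P = 0.139). ZIC (CAGCAGG) matched in 5.32% and 8.36% (odds ratio 0.616, Fisher's exact test, P = 0.045, adjusted P = 0.27). GATA, the motif of the GATA4, GATA5 and GATA6 family that directs heart formation, matched in 43 broad peaks (11.4%) and 11.8% of the others (adjusted P = 0.975, Fisher's exact test). Over whole peaks, GATA matches occurred at 0.652 per kb in broad and 0.638 per kb in other peaks, and KLF/SP matches at 1.13 and 0.919 per kb. Among peaks over 10 kb from a TSS, the odds ratio was 1.03 for KLF/SP and 1.47 for the GC box. KLF/SP passed the threshold against the narrowest 381 peaks (odds ratio 2.35), with log2 width as a number (1.23) and in windows of 500 bp (1.44). With GC content as a covariate, the odds ratio was 1.32 for KLF/SP and 1.22 for the GC box, and neither passed. Of the 18 motifs, 6 had the higher share in broad peaks and 12 in the others.

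Genes were associated with peaks through regulatory domains, which reach from 5 kb upstream to 1 kb downstream of the TSS and extend to the neighbouring gene or up to 1 Mb. A broad peak fell in the domain of 633 of 21911 genes (2.89%), and any CHD7 peak in that of 4978 (22.7%). Distances to the gene of a domain are given to the TSS on which the domain was built, which need not be the nearest. Of the 633 genes, 605 had 1 broad peak, 24 had 2 and 4 had 3. A narrower CHD7 peak lay in the same domain for 262 of them (41.4%). A broad peak was associated with a single gene in 23.4% of cases (95% CI 19.4 to 27.9) and with 2 genes in 76.3%. Of the other peaks, 609 of 3385 were associated with a single gene and 81.6% with 2. The domains of genes with a broad peak were long. Their median was 228307 bp, that of genes with any peak 202951 bp and that of all genes 90166 bp. A longer domain has more room for peaks of any kind, and whether length accounts for these counts was not tested. With the basal domain alone, from 5 kb upstream to 1 kb downstream, 94 genes had a broad peak.

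The 4 genes with 3 broad peaks were Crb2, Dennd1a, Htra4 and Clk3. Crb2, an apical polarity gene required for cells to leave the primitive streak, and the endocytosis regulator Dennd1a share theirs, of which peak320 at chr2:37779780-37782260 lies in intron 1 of Crb2, 4771 bp downstream of its TSS, and peak321 and peak322 lie in introns 19 and 4 of Dennd1a. All CHD7 peaks of the serine protease gene Htra4 were broad, with peak1662 at 880 bp from its TSS in intron 1, peak1661 in intron 8 and peak1663 in an intron of Plekha2. For the splicing kinase gene Clk3 they lay in introns of the neighbours Edc3 and Arid3b. Jph2, which is in none of the gene lists below, had 2 broad peaks and no narrower one, at its promoter and 22301 bp upstream in intron 1 of Oser1. Bmp4, a ligand needed for mesoderm and outflow tract, had 2 of its 7 CHD7 peaks in the broad class, both intergenic, peak2964 at chr14:46582438-46584105 and peak2966 at chr14:46661079-46663047, 192603 and 271394 bp upstream. Further genes with 2 were Tmem131, Nrp2, Tanc1, Wdsub1, Ccnl1, Lekr1, Pakap, Akap2, Rnf220, Tmem53, Limch1, Nars2, Tenm4, Dnase2a, Nrp1, Grik4, Tbcel, Arid3b, Uaca, Cdkn3 and Csf1r.

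In the 18 gene lists, 44 of 659 genes with a domain had a broad peak. Among transcription factors of cardiac progenitors and the second heart field it was 5 of 45 (11.1%, 95% CI 4.84 to 23.5), next to 2.89% of all genes. Any CHD7 peak was found for 23 of the 45 (51.1%), next to 22.7% of all genes. The median domain of this list, 612455 bp, is far longer than that of all genes. The 5 were Foxc2, Hand2, Gata6, Six2 and Zfpm1. The broad peak of Foxc2 (peak1796, 2389 bp, chr8:121119915-121122303) was its only one, at 4938 bp from the TSS. That of Hand2 (peak1687, 1902 bp) lay 396717 bp upstream, and its nearest TSS was that of Fbxo8, at 336346 bp. Gata6, which acts in both endoderm and heart, had its broad peak (1719 bp) 12239 bp upstream, as 1 of 3 CHD7 peaks. The peak associated with Six2 (peak3503, 1683 bp) lies in intron 1 of Six3, and that of Zfpm1, which encodes a partner of GATA factors, 73656 bp downstream of its TSS in intron 1 of Gm20388 (peak1800, 1557 bp). With the single nearest TSS in place of domains, the count for this list was 2, and 364 of 21911 genes (1.66%) had a broad peak by that rule.

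Of 32 sarcomere genes, Tpm1 alone had a broad peak, next to 2.89% of all genes. It spanned 2575 bp (peak1953, chr9:67043168-67045742) as 1 of 7 CHD7 peaks, in intron 2 and 493 bp upstream of an internal TSS. Ion channel and calcium handling genes of the heart had 0 of 30 (95% CI 0 to 11.4%) and endothelial and hemogenic genes 0 of 27 (95% CI 0 to 12.5%), while 11 (36.7%) and 6 (22.2%) of them had a narrower peak, next to 22.7% of all genes with any. The median domain of the ion channel list was 261222 bp. By the single nearest TSS, 1 of the ion channel genes had a broad peak, so the 0 depends on the association rule. A broad peak in intron 3 of Cacna1c (peak1345, 2045 bp), 60196 bp from the nearest TSS of that gene, fell in the domains of Ankrd26 and Dcp1b. Primitive streak and early mesoderm genes had 2 of 28 (Lef1 and Lhx1), pluripotency genes 1 of 27 (Jarid2) and endoderm genes 1 of 20 (Gata6). With the single nearest TSS, the counts of these lists were 1, 0 and 1, next to 1.66% of all genes.

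Axon guidance genes, many of which also guide vessels and neural crest cells, had 9 of 61 with a broad peak (14.8%, 95% CI 7.96 to 25.7), and 25 with any (41.0%), next to 2.89% and 22.7% of all genes. Their median domain was 326576 bp, against 90166 bp for all genes. The 6 with the widest peaks were the ephrin gene Efnb2, the semaphorins Sema6a and Sema3b, and the genes of semaphorin receptors Nrp1, Nrp2 and Plxna2. Measured to the nearest TSS of the gene, the broad peak of Plxna2 lay 592360 bp upstream and that of Sema6a 278511 bp upstream. Those of Nrp2 lay at 305255 bp, in an intron of Pard3b, and at 124046 bp. That of Sema3b was 3352 bp upstream. Nrp1 and Nrp2 each had 2, and peak1830 of Nrp1 (1598 bp, chr8:128361679-128363276) lies in its intron 1 at 3194 bp from the TSS and is also the broad peak of Itgb1. The widest was that near Efnb2, with 2513 bp (peak1638, chr8:8607884-8610396), 52102 bp downstream of the TSS of the domain and 30223 bp from the nearest TSS of the gene, in intergenic sequence. With the single nearest TSS the count was 8, next to 1.66% of all genes, and with the basal domain alone 1, next to 0.429%. Neural and neural crest genes had 4 of 27 (14.8%, 95% CI 5.92 to 32.5), among them Sox9, Sox6 and Ngfr, and 17 with any peak (63.0%), the highest share of any list, with a median domain of 495318 bp.

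Among signalling pathways, BMP and TGF-beta genes had 5 of 57 (8.77%, next to 2.89% of all genes), which were the ligands Bmp4 and Inhba, the receptor gene Tgfbr3 and the nuclear factors Id2 and Tgif1. WNT genes had 5 of 72 (6.94%), with the ligands Wnt4 and Wnt5a, the inhibitor Dkk1, the corepressor Tle3 and the nuclear effector Lef1. The broad peak of Wnt5a (peak2939, 1506 bp) lay 23885 bp upstream of its TSS, and that of Lef1 (peak698, 2320 bp) 225556 bp upstream. FGF genes had 3 of 38, which were Etv5, a transcription factor induced by FGF, the ligand Fgf10 (peak2899, 2019 bp, 119853 bp upstream of the TSS of the domain and 74945 bp from its nearest TSS) and the receptor gene Fgfr1. Hedgehog genes had 2 of 19, the ligand Ihh and the effector Gli3, and the peak of Gli3 (peak2745) is the same as that of Inhba. The median domains of these 4 lists were 279063, 254302, 373380 and 244491 bp, all longer than that of all genes. By the single nearest TSS, these counts were 2 for BMP and TGF-beta, 2 for WNT, 3 for FGF and 0 for Hedgehog genes, next to 1.66% of all genes by that rule. Notch genes had 1 of 31 (Dlk1), retinoic acid genes 1 of 22, chromatin remodellers and modifiers 2 of 56 (Chd6 and Jarid2) and extracellular matrix genes 2 of 47 (Fbln1 and the integrin gene Itgb1). With the single nearest TSS, the counts of these lists were 1, 0, 1 and 1. HOX genes had 3 of 39, with peak1251 (2224 bp) shared by Hoxa4 and Hoxa5, and peak358 (1679 bp) at 2629 bp upstream of Hoxd1, and with a median domain of 16604 bp. By the basal domain alone, the HOX and axon guidance lists had 1 gene each and the other lists 0, next to 0.429% of all genes. In most lists genes also had any CHD7 peak more often than all genes did, as the plot of the lists shows, and the lists were given no test.

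**Figure D5:**
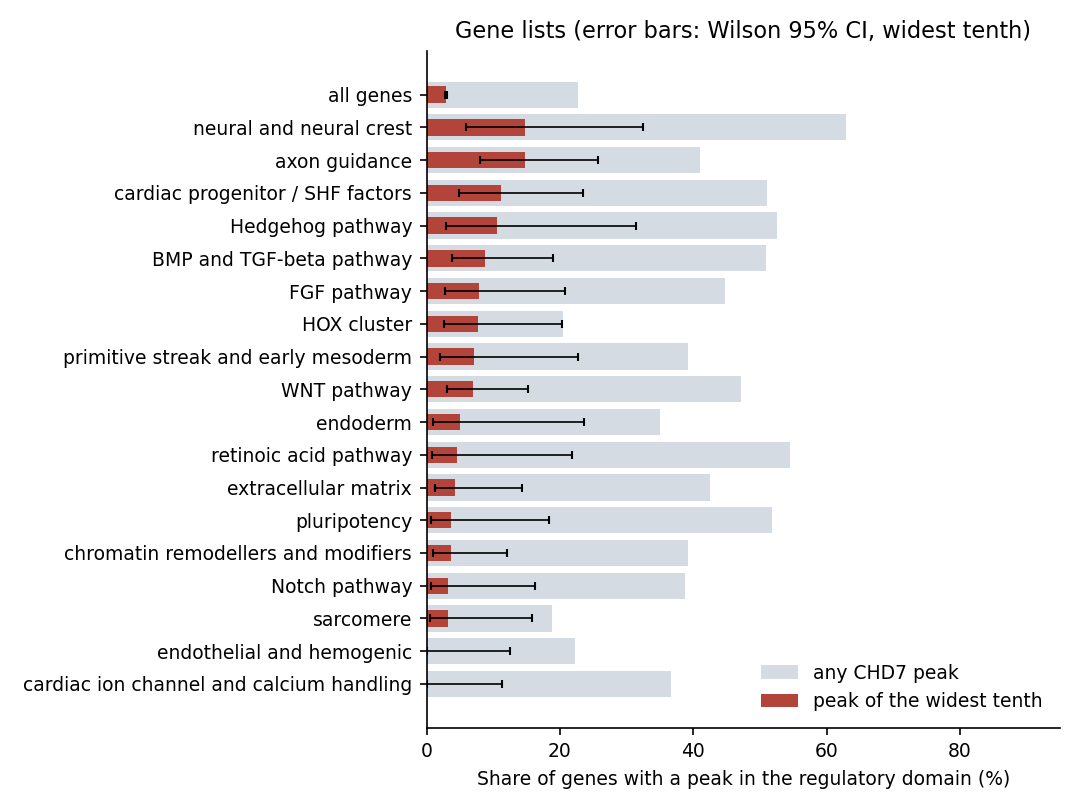
Share of genes in percent (x axis) with a broad peak (red, with Wilson 95% CI) or any CHD7 peak (light grey) in their regulatory domain, for each gene list and for all genes (y axis). Of all 21911 genes, 2.89% had a broad peak, against 14.8% of the axon guidance list and 0 of 30 ion channel and calcium handling genes. By the single nearest TSS, the count of the latter list was 1.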

How the data were processed

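CUT&RUN reads from the 9 libraries were processed by the authors. The submitters' notes name fastp 0.20.1, BWA 0.7.17.4 and MACS2 2.1.2, with removal of duplicates by unique molecular identifiers. The deposited values are start and end positions in bp, in a single list for anti-CHD7. The calling threshold and the way overlapping calls were joined are not given in the sources used here. Reads, IgG and input were not analysed here.

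Starts were read as counted from 0. The genome was GRCm38.p6 and the annotation GENCODE M21. Tests of location used the distance from the midpoint to the nearest TSS of any protein-coding transcript. Regulatory domains, and distances to the gene of a domain, used 1 TSS per gene. Counts entered 2-sided Fisher's exact tests and GC content a linear model with robust standard error, with Benjamini-Hochberg adjustment within 6 tests of location, 3 of composition and 18 of motifs. The functions were tested on simulated data.

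The members and lists were chosen with earlier results of these data known. Genes were named if near the 20 widest peaks, among the 10 (ties kept) with the most broad peaks, or in a list and with a broad peak, up to 6 a list. Some genes that fit this rule are not reported here. Alternatives covered other width classes, comparison groups, TSSs, windows and association rules. Python 3.11.15, numpy 2.4.6, scipy 1.17.1, statsmodels 0.14.6, pysam 0.24.0, matplotlib 3.10.9 and samtools 1.23.1 were used.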

Additional observations from a re-analysis of the deposited data

How the results depend on the processing

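The 6 tests of location and 3 of composition were recomputed under 85 alternatives in all, 2 of them added after the data had been seen, of which 64 kept direction and side of the threshold. Values are odds ratios, or percentage points for GC content. With the widest twentieth, the promoter share (1.52), the share over 10 kb (0.814) and the share over 50 kb (0.885) no longer passed, and the repeat share turned to 1.10. With the widest 20% of the list, the share over 50 kb (0.832) did not pass. Against the next 376 peaks by width, the same 3 distance shares (1.25, 0.75 and 0.721) did not pass, and the CpG-rich share turned to 0.845. The share over 50 kb also did not pass with 1 TSS per gene (0.768) or TSSs of every biotype (0.741). Against the narrowest 381 peaks, the intergenic share (0.693), GC content (2.66) and the repeat share (0.551) passed, and 1 motif differed, KLF/SP (2.35). With log2 width as a number, GC content (0.848 points per doubling) and the CpG-rich share (1.34) passed, and 2 motifs differed, KLF/SP (1.23) and AP-1 (0.739). GC content kept its side with distance class as a covariate but fell to 0.313, and among peaks over 10 kb from a TSS KLF/SP went from 1.53 to 1.03 and the GC box from 1.54 to 1.47. GC content also passed in 500 bp (1.09) and over the whole peak (0.724), and 2 motifs differed in 500 bp, KLF/SP (1.44) and the GC box (1.47). The CpG-rich share was 0 over 10 kb from a TSS. Within 1 kb, among those added, it was 0.568, and GC content was -0.475. GATA turned to 1.19 in the widest twentieth, 1.2 in 500 bp and 1.01 with GC content as a covariate. With that covariate KLF/SP was 1.32 and the GC box 1.22, and 0 motifs differed. Genes with a broad peak numbered 364 by the single nearest TSS and 94 by the basal domain alone. For all of these the cause was not tested.

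No paired analysis was possible because the list pools the replicates and carries no replicate number, and for the same reason leaving out a replicate was not possible. Read counts were not analysed here, so no stricter calling threshold was applied, and the number of broad peaks limits the precision of each share.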

Other observations

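Broad peaks were found on every autosome and on neither sex chromosome, where the list holds 14 peaks on X (0 broad, 95% CI 0 to 21.5%) and 1 on Y. By their definition, broad peaks make up 10% of the whole list (376 of 3761). Chromosome 3 had the highest share, 24 of 167 peaks (14.4%, 95% CI 9.85 to 20.5), and chromosome 16 the lowest of the autosomes, 3 of 122 (2.46%, 95% CI 0.84 to 6.98). The 2 chromosomes were singled out after their values had been seen, and no test was made. Chromosome 2 held the most broad peaks, with 35 of 306 (11.4%), and also the most peaks of any kind.

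Some broad peaks came close to each other. Of the 376, 25 had another broad peak within 50 kb (6.65%), in 13 neighbouring pairs with a median distance of 20137 bp between midpoints. The matching share for the other peaks is not given here. Another CHD7 peak of any width lay within 50 kb for 27.1% of broad and 24.1% of other peaks (adjusted P = 0.247, Fisher's exact test). The closest pair, peak1904 and peak1905, lies in intron 2 of Arid3b, 3385 bp apart, and is 2631 and 1793 bp wide. Next were the pair at Dnase2a, 4337 bp apart, that in intron 3 of Limch1, 6092 bp apart, and that in intron 2 of Tanc1, 6693 bp apart. Then came a pair in introns 8 and 1 of Htra4, 10549 bp apart. Another lies in introns 5 and 6 of Tenm4, a teneurin gene, 11799 bp apart. These pairs were picked by distance after the values had been seen.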
